A study of Mus musculus with 8 samples.

Results

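The genes described here are 9 markers of alveolar macrophages (AMs), namely Car4, Krt79, Krt19, Chil3, Ear2, Atp6v0d2, Cd9, Il18rap and Slc39a2, and what was measured is how open the chromatin around them was with and without retinoid X receptors (RXRs). Of the 82424 accessible regions found in the 8 libraries, 92 lay in the bodies of these 9 genes or within 20 kb on either side, and all 92 were kept. The libraries were made by ATAC-seq, in which the transposase Tn5 cuts open chromatin and tags it for sequencing, from AMs taken by bronchoalveolar lavage of adult mice. The WT group (4 libraries, replicates 1_2, 1_3, 3 and 4) had the genotype CD11cCre- Rxrabfl/fl and the KO group (4 libraries, replicates 1_2, 1_3, 2 and 3) the genotype CD11cCre+ Rxrabfl/fl, so that both groups carried the floxed Rxra and Rxrb alleles. Cre was driven by the promoter of CD11c, an integrin chain that AMs and dendritic cells share. The question of the comparison is whether the regulatory regions of genes that mark AMs lose accessibility when RXRα and RXRβ are deleted.

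AMs live in the airspaces, where they clear inhaled particles and surfactant lipid. RXRs are nuclear receptors that pair with partners such as PPARγ and the liver X receptors, and the pairs bind direct repeats of the half-site AGGTCA. The 9 markers do not share a molecular role. Krt79 and Krt19 encode keratins, the intermediate filament proteins best known from epithelia. Car4 encodes a membrane-anchored carbonic anhydrase, Cd9 a tetraspanin and Il18rap the accessory chain of the interleukin-18 receptor. Chil3 encodes the secreted chitinase-like protein Ym1, and Ear2 belongs to the eosinophil-associated ribonuclease family. Atp6v0d2 encodes a subunit of the membrane part of the vacuolar proton pump, and Slc39a2 a zinc importer of the plasma membrane.

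Krt79 had the clearest difference. Summed over the 5 regions of its window that every library listed, and scaled to each library's median, tags at the peak summits were 1.83-fold higher in WT than in KO. Regions upstream and in its intron fell by up to 1.35 on the log2 scale in KO, and 1 region had a peak in all 4 WT libraries and in no KO library. The farthest upstream of these regions lay nearer to the start of Krt78, and the WT-only region nearer to that of Krt4, both neighbouring keratin genes. A single distant region of Atp6v0d2 fell by 0.72 in KO, and the sum of Il18rap fell by 0.40, a call that was lost when any of several single libraries was left out. For Car4, Krt19, Chil3, Ear2, Atp6v0d2, Cd9 and Slc39a2 the summed difference did not pass the test, and none of the tested regions within 1 kb of a marker's start site was called.

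The sequences that carry these differences are given first, each covering 100 bases on either side of the strongest summit of its region on the plus strand of GRCm38 (mm10). Shown are the 5 called regions with the largest fold changes and, sixth, the Krt79 region with peaks in the WT libraries alone. Capitals mark every match to a half-site (AGGTCA) or to one of the motifs listed after them.
Krt79 upstream, chr15:101945516-101945716: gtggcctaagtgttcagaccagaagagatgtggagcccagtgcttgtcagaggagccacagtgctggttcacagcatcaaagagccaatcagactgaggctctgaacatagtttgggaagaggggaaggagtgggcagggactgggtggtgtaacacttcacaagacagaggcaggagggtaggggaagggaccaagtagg
Krt79 intron, chr15:101936464-101936664: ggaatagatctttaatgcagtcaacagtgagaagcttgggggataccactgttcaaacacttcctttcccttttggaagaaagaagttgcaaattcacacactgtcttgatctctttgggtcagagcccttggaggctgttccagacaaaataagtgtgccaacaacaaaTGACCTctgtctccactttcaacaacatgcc
Krt79 far upstream, chr15:101958946-101959146: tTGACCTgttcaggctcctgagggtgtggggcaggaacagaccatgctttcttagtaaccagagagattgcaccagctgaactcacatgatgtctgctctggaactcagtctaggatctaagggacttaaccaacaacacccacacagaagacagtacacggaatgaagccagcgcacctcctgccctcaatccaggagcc
Atp6v0d2 downstream, chr4:19869611-19869811: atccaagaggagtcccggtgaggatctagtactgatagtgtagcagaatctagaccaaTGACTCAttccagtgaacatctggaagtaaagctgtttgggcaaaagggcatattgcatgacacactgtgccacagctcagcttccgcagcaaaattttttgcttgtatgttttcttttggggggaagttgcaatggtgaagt
Ear2 upstream, chr14:44091591-44091791: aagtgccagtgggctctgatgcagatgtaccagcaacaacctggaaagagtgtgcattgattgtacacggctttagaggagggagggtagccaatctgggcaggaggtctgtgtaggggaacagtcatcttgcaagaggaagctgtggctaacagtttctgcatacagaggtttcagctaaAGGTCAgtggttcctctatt
Krt79 WT-only, chr15:101927651-101927851: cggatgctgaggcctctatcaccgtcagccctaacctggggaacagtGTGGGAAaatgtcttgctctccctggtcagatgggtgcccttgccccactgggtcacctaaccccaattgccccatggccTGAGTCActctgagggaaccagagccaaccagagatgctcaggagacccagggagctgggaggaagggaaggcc

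Motifs were searched on both strands in these 201-base stretches of all 72711 regions found in at least 2 libraries, of which 80 belong to the markers. The direct repeat DR1 (2 copies of AGGTCA spaced by 1 base, at most 2 mismatches) was in 5 of the 80 (6.25%) and in 4.14% of all regions, and DR4 (spacing of 4) in 3 (3.75%) against 2.63%. The DR1 matches were in regions of Car4, Atp6v0d2 and Cd9, and none of the 7 marker regions called lower in KO held a DR1 or DR4 match. The single half-site AGGTCA, added after the sequences had been seen, was in 17 of the 80 (21.2%) against 15.1%, and in 3 of the 7. PU.1 (GAGGAAGT) was in 8.75% against 10.7%, C/EBP (TTNCGNAA) in 5.0% against 2.27%, RUNX (TGTGGTT) in 12.5% against 8.98%, the E-box CACGTG in 3.75% against 5.35%, AP-1 (TGANTCA) in 12.5% against 11.9%, STAT (TTCNNNGAA) in 6.25% against 5.98% and RBPJ (GTGGGAA) in 2.50% against 5.10%. The WT-only Krt79 region held an AP-1 and an RBPJ match, and the Atp6v0d2 region an AP-1 match. A match describes the letters in the window and is not a measured binding site.

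The 8 peak lists held 60363 to 72484 peaks, and the tags at each summit (sequenced fragment ends, each extended to 200 bp by the peak caller) were worked back from the deposited fold enrichment and p-value. The genome-wide background, which follows depth, ran from 1.12 tags in KO replicate 3 to 2.26 in WT replicate 1_3, so that raw tags are best read within a library and the tests used tags centred on each library's median. AM promoters were open in every library for 7 of 8 AM marker genes (Ear1 had a promoter peak in WT replicate 1_3 alone), with summed promoter tags of 599 to 720 in KO and 646 to 946 in WT. Of 7 lymphocyte and 4 eosinophil genes, none had a promoter peak in any library. Some genes of other lists had a promoter peak in all 8 libraries: 3 of 6 neutrophil genes (S100a8, Mmp8 and Csf3r, summed tags 320 to 398 in KO and 306 to 474 in WT), 2 of 4 dendritic cell genes (115 to 151 and 112 to 150), 3 of 6 alveolar type 2 cell genes (152 to 193 and 175 to 259) and 1 of 3 endothelial genes (Pecam1; 112 to 178 and 134 to 184, with 14 tags of Kdr in WT replicate 3 alone). Ly6g, S100a9, Lyve1, Folr2, Sftpc, Sftpb and Cdh5 had none. The study counts Mmp8, and Cdh1 from the alveolar type 2 list, among AM-core genes, so their peaks do not tell other cells apart from AMs. Rxra had 16 regions found in at least 2 libraries, 1 of them with a peak in all WT and no KO libraries, and Rxrb had 2 regions, neither of them specific to a genotype. At Xist, the RNA of the inactive X chromosome, 2 of 3 regions had a peak in all 4 KO and no WT libraries, so the sex of the animals and the genotype cannot be told apart here, although none of the 9 genes is on the X chromosome. In libraries made from many cells, fewer cells with an open region and a less open region in each cell cannot be told apart.

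Most regions around the markers were found in both genotypes. Of the 92, 56 (60.9%) were listed in each of the 8 libraries, against 57.6% of all 82424 regions. Peaks were found in more WT than KO libraries for 22 regions (23.9%) and in more KO than WT libraries for 9 (9.78%), against 23.6% and 12.4% of all regions. Each KO list held 64 to 71 of the 92 regions (66.5 ± 3.32, SD, n = 4) and each WT list 68 to 79 (72.8 ± 4.65, n = 4). The ranges overlapped, and the two-sided exact permutation test gave p = 0.0857, where 0.0286 is the smallest it can give. Whole lists were also shorter on average for KO libraries (62512.5 peaks, range 60363 to 65009) than for WT libraries (66231.5, range 61240 to 72484). The test did not adjust for list length, so it cannot separate the markers from that difference between whole lists. 2 regions had a peak in all 4 WT and no KO libraries, and 0.82% of all 72711 regions did. None had a peak in all 4 KO and no WT libraries, which 0.285% of all regions did.

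**Figure D1:**
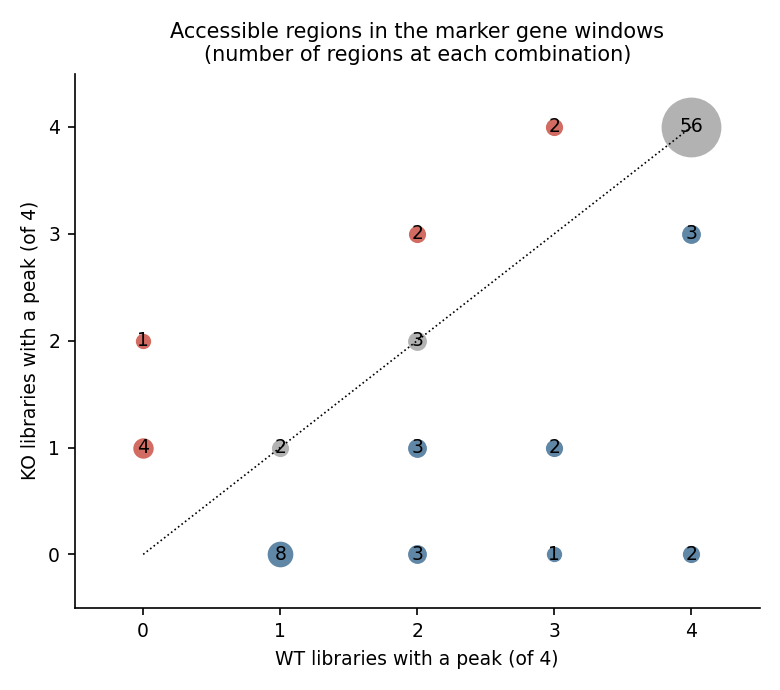
Number of KO libraries (y axis, of 4) against number of WT libraries (x axis, of 4) with a peak, for the 92 regions around the 9 marker genes. Each circle gives the number of regions at that combination, blue for more WT, red for more KO and grey for equal numbers, and the largest circle holds the 56 regions listed in all 4 libraries of each genotype.

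The 56 regions with a peak in every library were tested together with the other regions of that kind (47499 in all) by limma. Of the 56, 7 were lower in KO, where 7.03% of all regions were called lower, and 2 were higher, where 5.81% of all were called higher. In 5 of the 56 the lowest WT library lay above the highest KO library on the centred scale (7.91% of all regions) and in 4 every KO library lay above every WT library (8.25%). The median log2 fold change of the 56 was -0.087, against 0.043 over all regions. Without the 5 Krt79 regions among them it was -0.060, with 4 lower and 2 higher. How the libraries were scaled mattered for these counts: scaled by background tags, 4 marker regions were lower and 0 higher, and among all called regions the share of lower calls went from 54.7% to 77.6%.

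**Figure D2:**
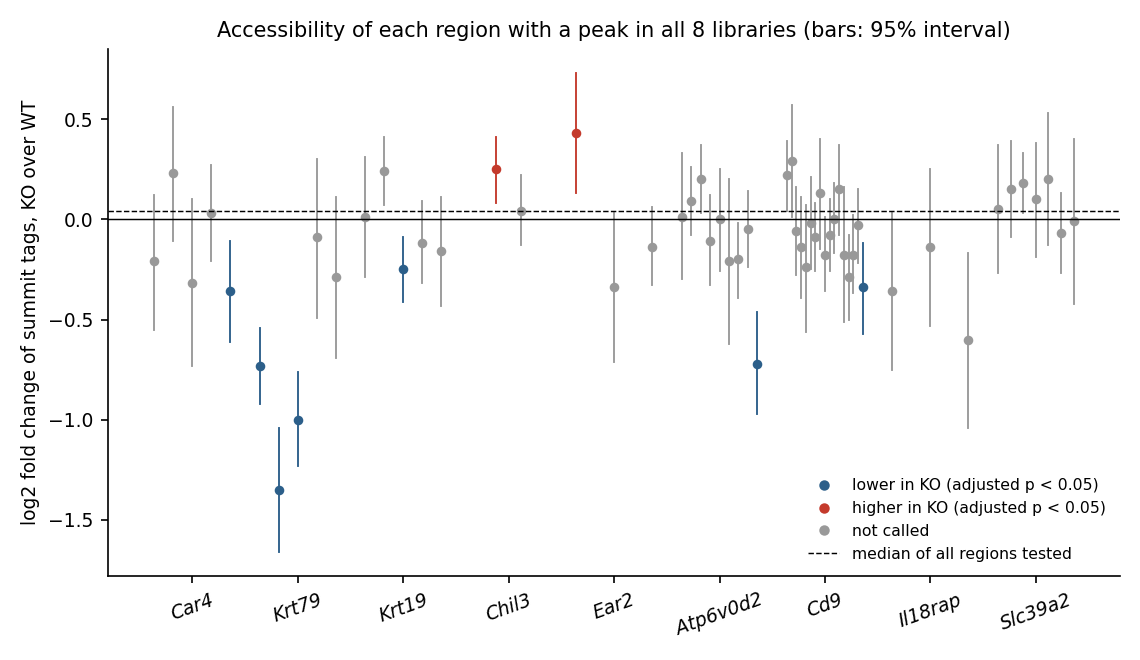
Log2 fold change of summit tags, KO over WT (y axis), for the 56 regions listed in every library, grouped by gene (x axis) and ordered within a gene from upstream to downstream. Points are limma estimates with 95% intervals, coloured by call, and the dashed line is the median of all regions tested; 3 of the 4 lowest points are Krt79 regions, the lowest at -1.35.

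At Krt79, each KO list held 7 or 8 of the 10 regions (7.25 ± 0.50, n = 4) and each WT list 9 or 10 (9.75 ± 0.50), without overlap. The gene itself (ENSMUSG00000061397.8, chr15:101929332-101940324, minus strand) had no region with a summit within 1 kb of its start site. The region 5292 bp upstream (chr15:101945328-101945850, intergenic) had 39, 29, 27 and 28 tags in KO and 82, 93, 105 and 85 in WT, given here and throughout in the order of replicates named in the opening. The groups did not overlap, and the fold change was -1.35 on the log2 scale (95% interval -1.66 to -1.04, limma adjusted p = 5.71e-09).

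The intronic region of Krt79 (chr15:101936299-101936894, 3760 bp into the gene) had 68, 58, 53 and 46 tags in KO and 127, 152, 122 and 119 in WT, a log2 fold change of -1.0 (-1.23 to -0.76, adjusted p = 2.49e-08). It is 1 of the regions whose printed sequence holds a single half-site. The strongest region of the window, 18722 bp upstream (chr15:101958726-101959606), had 127, 103, 106 and 99 tags in KO and 198, 232, 216 and 191 in WT, a log2 fold change of -0.73 (-0.92 to -0.54, adjusted p = 2.31e-07). It lies 4759 bp from the start of Krt78, a neighbouring keratin gene that is nearer to it than Krt79. In all 3 the groups did not overlap, and the 3 calls were made under each of the 17 alternatives that tested them, with log2 fold changes of -1.44 to -1.23, -1.06 to -0.93 and -0.79 to -0.68 in the order given.

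The other 2 Krt79 regions tested, at the end of the gene, were not called. The region at chr15:101929146-101929575 had 20 to 31 tags in KO and 32 to 42 in WT (log2 fold change -0.29, adjusted p = 0.365), and the one at chr15:101929710-101930107, in the coding sequence, 18 to 30 and 23 to 40 (-0.09, adjusted p = 0.808).

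Downstream of Krt79 lay the WT-only region (chr15:101927448-101927923, intergenic), 12573 bp from the Krt79 start and 3016 bp from that of Krt4. It had 35, 55, 57 and 33 tags in the WT libraries and was in no KO list. The local background there was 7.46 tags, so a KO library with fewer tags would miss the peak threshold, and the lists do not say how many tags it had. A further region 4704 bp upstream of Krt79 (chr15:101944900-101945180) had 18, 28 and 25 tags in 3 of the WT libraries and was in no KO list. The WT library without it was replicate 4, and leaving that replicate out made 3 WT-only regions in place of 2. The 3 remaining regions of the window were in 3 KO and all 4 WT lists.

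The sums given for each gene cover the regions of its window that all 8 libraries listed, and leave out the rest. For Krt79 these were 5 of 10 regions, without the WT-only one, and the summed tags were 284, 232, 245 and 224 in KO and 472, 549, 514 and 456 in WT (246 ± 26.6 against 498 ± 42.0, SD, n = 4 each). The groups did not overlap. The log2 fold change was -0.87 (SE 0.068, adjusted p = 1.49e-10), the 89th lowest of 16106 protein-coding genes, and it stayed called in all 16 alternatives, with values from -0.92 to -0.74. Across all genes, 8.59% were called lower and 2.68% higher.

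The lower accessibility around Krt79 did not end with the 20 kb window. In the surrounding 100 kb on each side, which were examined after the values in the window had been seen, 12 further regions were listed for every library, and 5 of these were lower in KO and 0 higher. Of all regions tested, 7.03% were called lower and 5.81% higher. The 5 lower regions all lay close together upstream of Krt79, beyond Krt78, with log2 fold changes of -0.68, -0.57, -0.83, -0.98 and -0.43 (adjusted p = 5.78e-06, 3.53e-05, 2.64e-06, 3.28e-07 and 0.00158), and Krt78 was the gene with the nearest start site for each. The other 7 were not called, and 6 of them lay between -0.12 and 0.10, whereas 1 was at -0.55 (adjusted p = 0.0792). The median of the 12 was -0.28, and that of the 5 tested regions inside the window -0.73.

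**Figure D3:**
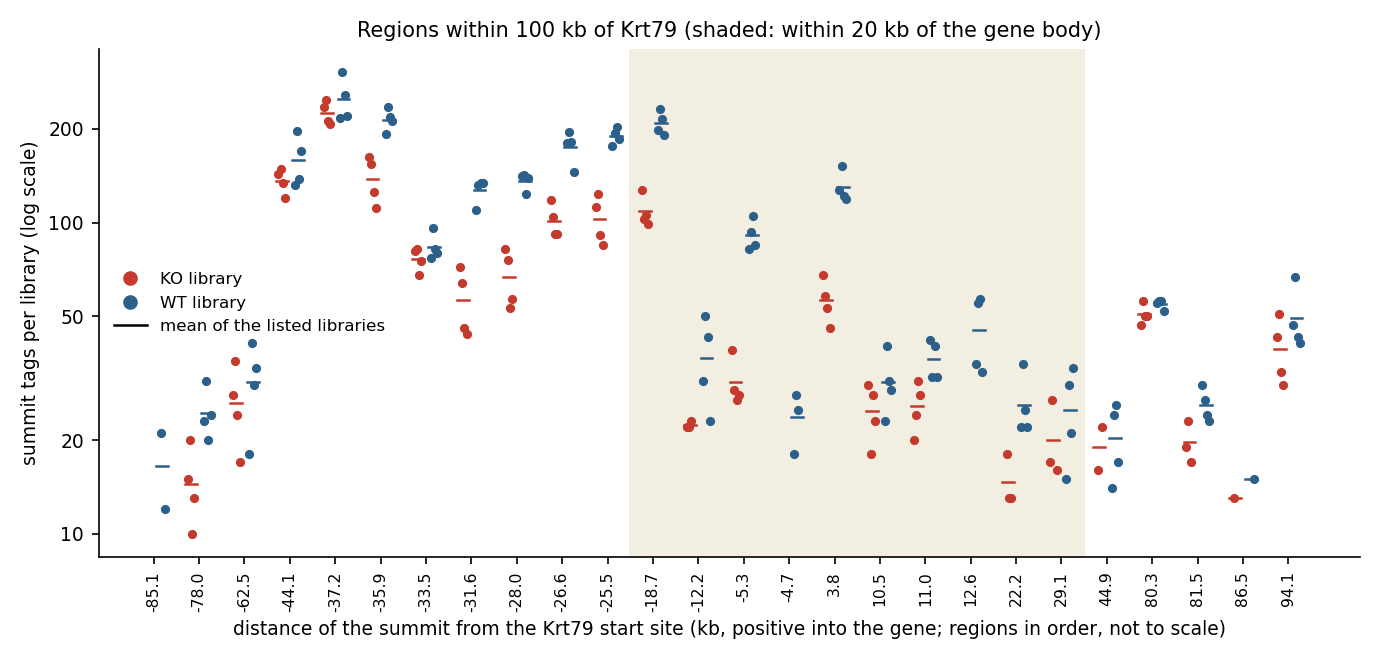
Summit tags per library (y axis, log scale) at the regions within 100 kb of the Krt79 gene body that were found in at least 2 libraries, in order of distance from the Krt79 start site (x axis, kb, not to scale). Red points are KO and blue points WT libraries, short lines are means of the libraries with a peak, and the shaded part is the 20 kb window; WT points lie clear of KO points at the regions 5.29 kb upstream and 3.76 kb into the gene, and at 12.6 kb the KO libraries had no peak.

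Krt19, the second keratin, differed little. Its 7 regions included 2 near its start site, of which the one at 23 bp (chr11:100145862-100146333) had 137, 124, 112 and 92 tags in KO and 142, 159, 157 and 124 in WT (log2 fold change -0.12, adjusted p = 0.494). The ranges overlapped. The other, at 829 bp (chr11:100144948-100145433), had 53 to 70 and 62 to 96 tags (-0.16, adjusted p = 0.470). The strongest region of the window (chr11:100149450-100150006, 3569 bp upstream of that start site) had 288, 267, 216 and 202 tags in KO and 334, 378, 338 and 285 in WT, and was called lower with a log2 fold change of -0.25 (-0.41 to -0.09, adjusted p = 0.0335). The second WT-only region of the markers was here (chr11:100139249-100139855, intergenic, 3538 bp from the start of the neighbouring keratin gene Krt15). Its 11, 16, 19 and 19 tags were not far above the smallest in any list (6 to 9), and no KO library had a value to compare them with. Summed over the 5 of its 7 regions that every library listed, Krt19 had 849, 754, 657 and 637 tags in KO and 837, 970, 920 and 732 in WT, a log2 fold change of -0.11 (-0.22 to 0.00, adjusted p = 0.192), which with a 5 kb window became -0.28 (adjusted p = 0.00189).

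Car4 had 6 regions, 5 of them in every library. The promoter region (chr11:84957596-84958222, 11 bp from the start site) had 50, 37, 30 and 42 tags in KO and 45, 57, 64 and 47 in WT, a log2 fold change of -0.21 (-0.55 to 0.12, adjusted p = 0.435). The strongest by tags, 21773 bp downstream of the start (chr11:84979356-84979817), had 75 to 97 and 71 to 118 tags (0.03, adjusted p = 0.893). The region 27808 bp downstream, in an untranslated exon of the neighbouring gene Usp32 (chr11:84985431-84985778), had 91, 82, 63 and 61 tags in KO and 89, 119, 133 and 102 in WT and was called lower (-0.36, -0.61 to -0.11, adjusted p = 0.0435). The summed tags of those 5, 310, 257, 235 and 259 in KO and 300, 362, 392 and 286 in WT, gave a log2 fold change of -0.19 (-0.35 to -0.03, adjusted p = 0.135).

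Cd9 had the most regions, 23, of which 17 were in every library and 16 of these were not called. Its own promoter region (chr6:125494499-125494921, 14 bp from the start site) was in 3 KO and 2 WT lists, with 64, 67 and 50 tags in KO replicates 1_2, 2 and 3 and 63 and 59 in WT replicates 3 and 4. The local background there was 21.6 tags, against 1.12 to 2.26 genome-wide, and which libraries reached the peak threshold did not follow genotype. The strongest region, 49315 bp downstream of the start site and beyond the gene's end (chr6:125445232-125445889), had 344, 330, 298 and 313 tags in KO and 351, 359, 430 and 386 in WT (-0.03, adjusted p = 0.867). The called region lay 50656 bp from the start (chr6:125443931-125444365), with 112, 129, 86 and 76 tags in KO and 127, 168, 156 and 134 in WT (-0.34, -0.57 to -0.12, adjusted p = 0.0308). Summed over the 17, Cd9 had 2510, 2492, 2131 and 2021 tags in KO and 2492, 3016, 3000 and 2528 in WT, a log2 fold change of -0.13 (-0.23 to -0.02, adjusted p = 0.123), which without WT replicate 1_3 was -0.17 (adjusted p = 0.0117).

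Il18rap had the fewest tags, from only 3 regions, each in every library. Its promoter region (chr1:40515134-40515535, 30 bp from the start site) had 33, 20, 31 and 27 tags in KO and 35, 53, 26 and 31 in WT (-0.14, adjusted p = 0.694), and none of the 3 was called. An intronic region 25662 bp into the gene (chr1:40540805-40541303) had 10, 14, 15 and 18 tags in KO and 21, 35, 25 and 21 in WT, without overlap in raw tags but with overlap on the centred scale (-0.60, adjusted p = 0.0559). The sum of the 3 was 62, 58, 76 and 66 in KO and 83, 140, 88 and 80 in WT, and it was called lower with a log2 fold change of -0.40 (-0.67 to -0.13, adjusted p = 0.047). The call rested on single libraries. It was lost without KO replicate 1_2 (-0.34, adjusted p = 0.16), KO replicate 1_3 (-0.32, 0.166), KO replicate 3 (-0.45, 0.0505), WT replicate 1_3 (-0.31, 0.174) or WT replicate 3 (-0.44, 0.0572), and with the libraries scaled by background tags its adjusted p was 0.516.

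Of the secreted proteins, Chil3 had no region at its start site. Its strongest region, 3246 bp upstream (chr3:106170369-106171075), had 314, 278, 285 and 230 tags in KO and 349, 394, 300 and 222 in WT (0.04, adjusted p = 0.789). The region 5161 bp upstream (chr3:106172529-106172918) had 228, 246, 226 and 222 tags in KO and 220, 280, 227 and 184 in WT. On the centred scale every KO library lay above every WT library, and it was called higher in KO (0.25, 0.08 to 0.41, adjusted p = 0.0398). The summed tags of these 2, the only ones of its 8 regions in every library, were 542, 524, 511 and 452 in KO and 569, 674, 527 and 406 in WT, a log2 fold change of 0.06 (-0.06 to 0.19, adjusted p = 0.60).

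Ear2 belongs to a family with near-identical copies, and the authors kept only reads that mapped with high confidence, so its values may be incomplete. The promoter region (chr14:44102529-44102833, 54 bp from the start site) had 25, 27, 24 and 34 tags in KO and 35, 49, 37 and 41 in WT, with every WT library at or above 35 and every KO library below, but on the centred scale the groups overlapped (-0.34, -0.71 to 0.03, adjusted p = 0.237). The strongest region, 1694 bp past the start (chr14:44103736-44104561), had 109 to 125 and 114 to 206 tags (-0.14, adjusted p = 0.384). The region 10963 bp upstream whose sequence is given above (chr14:44091521-44091967) had 69, 69, 49 and 58 tags in KO and 45, 87, 47 and 40 in WT and was called higher in KO (0.43, 0.13 to 0.73, adjusted p = 0.0488), with WT replicate 1_3 above every KO library in raw tags. Summed over these 3, the only ones of its 7 regions in every library, Ear2 had 219, 218, 187 and 201 tags in KO and 225, 342, 232 and 195 in WT (-0.10, -0.26 to 0.07, adjusted p = 0.538).

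Atp6v0d2 had 16 regions, of which 9 were in every library. Its promoter region (chr4:19922381-19922802, 18 bp from the start site) had 236, 226, 202 and 183 tags in KO and 213, 252, 201 and 191 in WT (0.20, 0.03 to 0.37, adjusted p = 0.121). A second region at the start site, 989 bp upstream (chr4:19923395-19923773), had 90, 89, 60 and 52 tags in KO and 49, 69 and 45 in WT, with no peak in WT replicate 3, and was not tested. The strongest region, 4609 bp upstream (chr4:19926861-19927393), had 256, 264, 201 and 186 tags in KO and 247, 293, 233 and 210 in WT (0.09, adjusted p = 0.525). At the far side of the gene, 52894 bp from its start (chr4:19869363-19869949, intergenic), tags were 50, 54, 58 and 52 in KO and 97, 129, 96 and 91 in WT. The groups did not overlap, the log2 fold change was -0.72 (-0.97 to -0.46, adjusted p = 6.07e-05), and the region was called under all 17 alternatives that tested it, from -0.77 to -0.66. Slc7a13 is the gene with the nearest start site, 50986 bp away. The sum over the 9 was 1213, 1182, 1017 and 914 tags in KO against 1258, 1639, 1225 and 1094 in WT (-0.12, -0.22 to -0.02, adjusted p = 0.129).

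Slc39a2 had 12 regions, 7 of them in every library and none called. The region at 60 bp from its start site (chr14:51893304-51893762) had 57, 53, 66 and 53 tags in KO and 66, 74, 62 and 48 in WT (0.10, adjusted p = 0.704), and the one at 842 bp (chr14:51894295-51894628) 40 to 56 and 44 to 51 (0.20, adjusted p = 0.456). The strongest region of the window was the promoter of the neighbouring gene Mettl17 (chr14:51884544-51885109, 16 bp from its start), with 382, 365, 320 and 333 tags in KO and 324, 427, 375 and 313 in WT (0.18, adjusted p = 0.108). The summed tags of the 7 were 772, 757, 699 and 679 in KO and 732, 920, 799 and 673 in WT, a log2 fold change of 0.05 (-0.05 to 0.14, adjusted p = 0.619).

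The 5 called regions with log2 fold changes of at most 0.43 in size were near the threshold. Scaled by background tags none of them was called (adjusted p from 0.163 to 0.707). Without KO replicate 2 or KO replicate 3, the regions of Car4 (adjusted p = 0.144 and 0.125), Krt19 (0.133 and 0.144), Cd9 (0.117 and 0.152) and Chil3 (0.0722 and 0.131) were not called. Without WT replicate 3 or WT replicate 4, those of Car4 (0.196 and 0.113), Krt19 (0.0759 and 0.0516), Cd9 (0.0908 and 0.0855) and Ear2 (0.161 and 0.0862) were not. The Ear2 region also lost its call without KO replicate 1_2 (0.128), KO replicate 1_3 (0.132), KO replicate 3 (0.113) or WT replicate 1_2 (0.146), the Chil3 region without KO replicate 1_3 (0.101), WT replicate 1_2 (0.0778) or WT replicate 3 (0.114), and the Krt19 region without WT replicate 1_2 (0.0942).

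**Figure D4:**
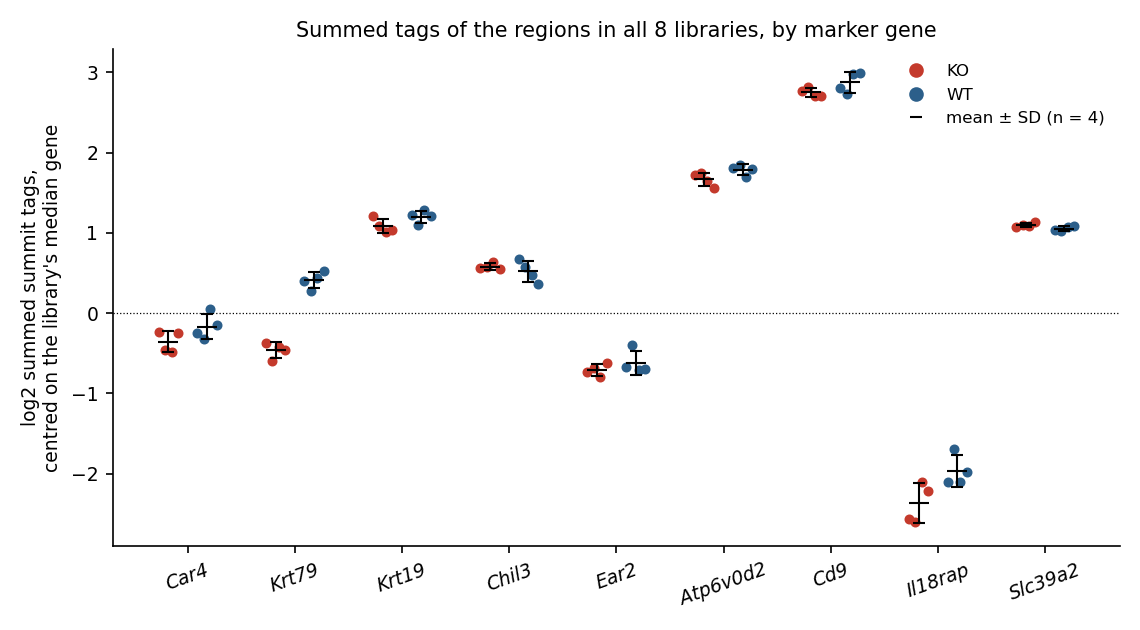
Log2 summed summit tags of the regions that every library listed, centred on the median gene of each library (y axis), for the 9 marker genes (x axis); red points are the 4 KO and blue points the 4 WT libraries, black bars mean ± SD. Krt79 is the gene whose groups do not overlap, at -0.46 ± 0.10 in KO and 0.41 ± 0.10 in WT.

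Divided by the length of the window in units of 10 kb, the summed tags of the regions in every library were 370 ± 38.6 at Cd9 in WT (SD, n = 4), 181 ± 21.8 at Krt19, 178 ± 24.2 at Slc39a2, 152 ± 27.3 at Atp6v0d2, 97.6 ± 8.24 at Krt79, 90.7 ± 18.5 at Chil3, 69.4 ± 10.4 at Car4, 60.8 ± 15.7 at Ear2 and 12.8 ± 3.72 at Il18rap. Krt19, Slc39a2 and Atp6v0d2 lay within their spread of each other, as did Krt79 and Chil3, and Car4 and Ear2. In KO, Krt79 was at 48.3 ± 5.22, beside Ear2 (50.4 ± 3.73) and Car4 (55.0 ± 6.58). Regions that some libraries lacked are not in these levels, so they are not the whole signal of a window and their order holds for the counted regions alone. The levels also hold regions nearer to other genes. At Slc39a2 the promoter region of Mettl17 had a mean of 360 tags in WT, and the whole sum a mean of 781.

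Other genes of the AM programme were set beside the 9 markers. Of 18 such genes, 11 were called lower in KO and 1 higher, where 8.59% of all 16106 genes were called lower and 2.68% higher. Their median log2 fold change was -0.17, against -0.12 for the 9 markers (2 lower, 0 higher) and 0.00 for all 16106 genes. The list had been chosen with earlier results of these data known, so its counts are no independent yardstick for the markers. Cpne5, a calcium-dependent membrane-binding protein, was at -0.73 (adjusted p = 6.09e-10), Fabp4, a fatty acid carrier, at -0.54 (1.28e-04), Ear1, a relative of Ear2, at -0.50 (4.00e-06), Lpl, the lipoprotein lipase, at -0.50 (1.74e-06) and Marco, a scavenger receptor, at -0.49 (6.07e-08). Fabp1, Mrc1 (the mannose receptor), Cidec (a lipid droplet protein), Siglecf, Abcg1 (a sterol exporter) and Olr1 (a receptor for oxidised lipoprotein) were lower by smaller amounts, from -0.29 to -0.15. Their limma adjusted p-values were 2.91e-04, 3.33e-04, 0.00115, 0.0351, 0.036 and 0.043, in that order, the last 3 near the threshold. Whether the calls of these 18 genes held under the alternatives was not examined. Pparg, Bhlhe41, Csf2rb, Plet1, Ctsk and Cd2 were not called, with 95% intervals that lay between -0.14 and 0.24. Itgax, which encodes CD11c itself, was higher in KO by 1.36 (adjusted p = 4.56e-18). The KO animals carry the Cre transgene with the CD11c promoter and the WT animals do not, so copies of the promoter in the transgene and the gene's own locus cannot be told apart. Among called genes, the share of lower calls was 76.2%, and 64.7% with quantile scaling.

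**Figure D5:**
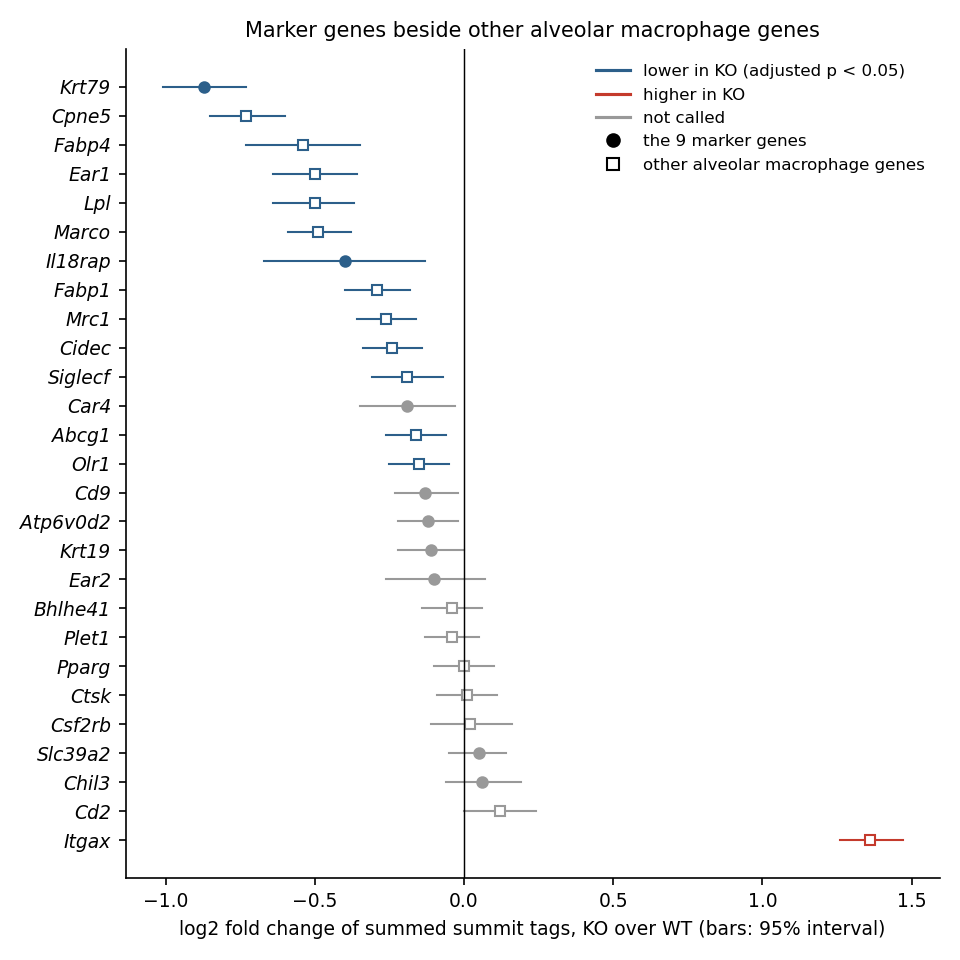
Log2 fold change of summed summit tags, KO over WT (x axis, limma estimates with 95% intervals), for the 9 marker genes (filled circles) and 18 other AM genes (open squares), coloured by call. Krt79 has the lowest value of the 27 genes at -0.87 and Itgax the highest at 1.36.

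The 5 genes outside the windows whose summed tags followed the mean profile of the 9 markers most closely over the 8 libraries were Gpat3, Smyd2, Sstr2, Bptf and Msi2, with Pearson's r from 0.989 to 0.992. Their own log2 fold changes were -0.21, -1.47, -0.31, -0.14 and -0.92, in that order. The sums were centred on each library's median, and the libraries of a group share their genotype. The 5 genes were picked as the highest of all other genes over only 8 libraries, so high values of r arise by the picking. These correlations describe the 8 libraries and were not tested.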

How the data were processed

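According to the study's methods, paired-end reads from sorted AMs were trimmed with Cutadapt, aligned to mm10 with Bowtie2, cleared of duplicates and of alignments of low quality, and used for peak calling, 1 list per library, by MACS3 with a q-value threshold of 0.05. The deposited lists give each peak's fold enrichment, a ratio of summit to background tags, and its −log10 p-value and q-value. From the authors' fold and p-value the whole tags at each summit were worked back, with a relative error under 1e-05 for 100% of peaks. They are not read counts over regions, and the lists were not made to be compared by them.

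Peaks sharing at least 1 bp were merged, and GENCODE M21 gave the gene models. Log2(tags + 0.5), centred on each library's median, was compared between KO and WT with limma 3.58.1 (two-sided, trended variance, Benjamini-Hochberg adjusted p under 0.05), for the 47499 regions listed in every library and for their summed tags in the windows of 16106 protein-coding genes. Fold changes are on this scale. Tested on simulated tags for these regions, the fit called 40.0% of changes of 0.5 and 93.0% of changes of 1 on the log2 scale, and 37.0% and 90.0% for genes. The simulation had a fixed spread and gave regions and genes the same median tags, although sums over gene windows hold more. The shares for genes therefore do not measure what the gene test could miss. The shares for regions were taken over strong and weak regions together. They do not give the rate for regions with few tags, such as those of Il18rap. Alternatives were other scalings, pseudocounts, peak thresholds, overlaps and windows, other rules for missing peaks, and leaving out each library. The labels do not say whether replicates 1_2 and 1_3 share an animal, so p-values measure the spread between libraries, which may be technical in part.

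Every region with a summit within 1 kb of a marker's start, the strongest of each window, those with 3 or more libraries' difference and every called region are described. The members, lists and motifs were chosen with earlier results of these data known. Sequences are from the GRCm38 reference. All peaks lay within its chromosome lengths. The results of 2 lists of marker genes are not reported here.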

Additional observations from a re-analysis of the deposited data

Results flagged for a closer look

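Of 36 sets of 4 libraries examined, 7 had 1 library flagged by Dixon's ratio, where chance flags about 1 set in 20 when the values are not tied. For Ear2 in WT, replicate 1_3, the deepest library, had a centred log2 sum of -0.40 and the others -0.67, -0.71 and -0.70. The other 6 were counts of listed regions in which 1 library departed from 3 equal ones. There the ratio is 1 however small the difference, so the rate of 1 in 20 does not hold for them. KO replicate 1_3 had 8 Krt79 regions and the others 7, and WT replicate 4 had 9 and the others 10. WT replicate 1_2 had 7 Krt19 regions and 18 Cd9 regions, against 6 and 19 in the others. WT replicate 3 had 3 Chil3 regions against 4, and WT replicate 1_3 had 11 Slc39a2 regions against 8.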

How the results depend on the processing

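The Krt79 sum and the Krt79 and Atp6v0d2 regions with log2 fold changes beyond -0.70 kept their direction and call in every alternative that tested them, and no called value changed its sign. The median of the marker regions stayed between -0.14 and -0.049. With lists of equal length 1 marker region was WT-only, and leaving out 1 library gave 2 to 3; within 5 kb 34 regions were in all 8 libraries, and leaving out 1 library gave 56 to 57. The number of marker regions lower in KO (7) became 4 when scaled by background tags, 4 without the variance trend and 2 within 5 kb, and 4 to 8 when 1 library was left out. The number higher (2) became 0 with background scaling and without the trend, 1 with quantile scaling, with 1_2 and 1_3 as 1 sample, with missing tags at the floor and within 5 kb, and 0 to 3 when 1 library was left out. Of the genes, Krt79 alone was called (1 gene) with background or quantile scaling and with missing tags at the floor, and 1 to 2 genes were called when 1 library was left out. Over all regions, background scaling gave 1988 lower and 575 higher calls in place of 3337 and 2759, and over all genes 285 and 83 in place of 1384 and 432. The balance went the other way with the replicate block, which over all regions gave 3268 lower and 3914 higher. It was near level in the same 6 libraries without the block, with 2723 lower and 2700 higher. The causes were not tested. Deviations of same-numbered libraries had correlations of 0.0555, 0.116 and 0.0368, which were not set beside those of differently numbered libraries. Whether replicate numbers pair the libraries was therefore not settled. In the 6 libraries with shared numbers, the replicate block gave 5 marker regions lower and 6 higher and 2 genes lower. The same libraries without the block, a fit added after seeing the data, gave 4 marker regions lower and 4 higher. Over all genes, the block gave 1697 lower and 778 higher, against 1471 and 577 without it. A peak that is missing from a list shows only that the threshold was not reached at that depth.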
